A study of Mus musculus with 12 samples.

Results

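The Zfp genes described here are mouse protein-coding genes whose symbol is Zfp followed by a number, the naming series that gathers most mouse genes for zinc finger proteins of the C2H2 type. Symbols came from the GENCODE M21 annotation of GRCm38, and Zfp36, which encodes an mRNA-binding protein with another kind of zinc finger, was left out. Of 364 such genes among the 52636 gene identifiers counted, 265 had a mean of at least 2 CPM (a gene's counts scaled by the library's total) over the 12 libraries and form the set. The genes were thus chosen by a measured value, the mean CPM, which is given below only as a description. All 265 genes were among the 14687 genes tested for differences between groups. Of the 99 genes below the limit, 21 had no counts and 39 were among the genes tested.

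The libraries came from primary microglia, the resident macrophages of the brain, of wild-type C57BL/6 pups at postnatal day 1 to 2. All cells were plated at 50000 per well with 2.5 ng CSF1, a growth factor on which microglia depend. For 24 h they received a 5 µg dose of neurofilament light chain in its full length (NfL, an intermediate filament protein of axons that is released when neurons are damaged), a 5 µg dose of its coiled-coil part, or vehicle. There were 3 groups of 4 libraries, and a library's number (1 to 4) is that of its batch, so that a batch holds 1 library of each group. The labels do not say whether batches were separate cultures or litters, so p-values here reflect the spread between samples that may be technical replicates.

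A C2H2 zinc finger is a short fold in which a pair of cysteines and a pair of histidines hold a zinc ion, and proteins with tandem arrays of such fingers read DNA sequence. In many of them the fingers follow a KRAB box, which recruits the co-repressor Trim28 and through it the histone methyltransferase Setdb1, and many KRAB zinc finger genes lie in clusters that arose by local duplication. KRAB proteins are best known for silencing transposable elements and for guarding imprinted genes, whereas C2H2 proteins without the box include activators, repressors and RNA-binding proteins.

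Total counts ran from 20162427 to 31048044 per library. Of the 12 microglia markers checked, all were tested, and their summed level was 12160 to 13293 CPM with full-length NfL, 12894 to 14938 CPM with coiled-coil NfL and 13159 to 15762 CPM with vehicle. The summed markers of each other cell type were lower than those of microglia in all 3 groups. The 8 astrocyte markers summed to 22.6 to 37.0 CPM with full-length NfL, 23.5 to 52.2 CPM with coiled-coil NfL and 24.1 to 60.01 CPM with vehicle, and the 8 neuron markers to 10.3 to 28.4, 14.98 to 44.5 and 18.4 to 63.5 CPM in the same order. The 5 border macrophage markers summed to 312 to 605, 488 to 1081 and 708 to 1218 CPM, the 9 markers of oligodendrocytes and their precursors to 91.1 to 125, 114 to 203 and 118 to 191 CPM, and the 7 markers of fibroblasts and vessels to at most 8.10, 9.36 and 9.78 CPM. The 5 markers of neutrophils and lymphocytes summed to at most 1.25 CPM in any library, and Cldn5, Cd3e and S100a9 had no counts in any. The part that other cells may have in the values below was not tested. In bulk samples, fewer cells of a type and less RNA per cell cannot be told apart.

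The genes were expressed at modest levels. The mean CPM over all 12 libraries had a median of 11.5 over the 265 genes, with a range of 2.06 to 253; 9 genes exceeded 100 CPM and 115 were under 10 CPM. A gene had 617 to 75837 counts over the 12 libraries, so that the genes near the limit carry the largest relative error. Per kilobase of exon, the scale on which genes can be compared, mean levels ran from 0.264 to 36.6 CPM per kb with a median of 2.31. The genes lay on 20 chromosomes, with 67 on chromosome 7, 35 on chromosome 17, 22 on chromosome 8 and 20 on chromosome 13. A profile search found a KRAB box in 153 of them. A search for the C2H2 pattern found a median of 10 fingers per protein, with a range of 0 to 33 and no finger in 5 proteins.

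With full-length NfL, 57 of the Zfp genes were lower and 10 were higher than with vehicle at an adjusted p under 0.05 (edgeR quasi-likelihood F test, two-sided, Benjamini-Hochberg adjustment over all 14687 genes). The Zfp genes were thus called about as often as other genes, 25.3% of them against 24.9% of all tested genes, and their calls were split as follows: 21.5% were called lower, against 10.9% of all tested genes, and 3.77% were called higher, against 14% of all tested genes. The changes were small for most. The log2 fold change had a median of −0.14 over the Zfp genes, with quartiles of −0.31 and 0.05, against −0.02 over all tested genes with quartiles of −0.35 and 0.24. It was negative for 184 of 265 Zfp genes (69.4%, against 51.9% of all tested genes) and within 0.5 of 0 for 225. A change of at least 2-fold was called for 6 genes that fell and 1 that rose. The count of falls was 34 (12.8%) without full-length replicate 2 and 37 (14%) without full-length replicate 4, against 6.67% and 6.77% of all tested genes. It was 37 (14%) and 34 (12.8%) without vehicle replicates 2 and 4, against 7.51% and 6.7% of all tested genes. The count of rises was 2 and 4 without full-length replicates 2 and 4 (0.755% and 1.51%, against 9.36% and 10.2% of all tested genes). It was 5, 4 and 5 without vehicle replicates 1, 2 and 4 (1.89%, 1.51% and 1.89%, against 10.8%, 10.3% and 9.52%). With full-length replicate 4 and vehicle replicate 2 both left out, an alternative chosen after the data were seen, 20 falls and 2 rises were called, against 3.67% lower and 5.35% higher of all genes then tested.

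The values of single libraries showed the same direction. The range of the 4 full-length libraries lay wholly below that of the 4 vehicle libraries for 58 Zfp genes, where 11.4% of all tested genes did so, and wholly above it for 8, where 14.5% of all tested genes did so. Within batches, 97 genes (36.6%, against 28.1% of all tested genes) were lower with full-length NfL in all 4, and 29 (10.9%, against 26.5%) were higher in all 4. The median log2 difference over the Zfp genes was −0.15, −0.15, −0.07 and −0.18 in batches 1 to 4, where that of all tested genes was −0.01, −0.01, −0.02 and −0.00. With the batch in the model as a replicate block, 76 Zfp genes were called lower and 18 higher, against a background of 22.4% lower and 21.4% higher; all 57 falls of the fit without the block remained called. The direction of the median was the same under each scaling of the libraries tried (TMM −0.14, upper-quartile −0.20, none −0.22; all tested genes −0.02, −0.08 and −0.09).

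**Figure D1:**
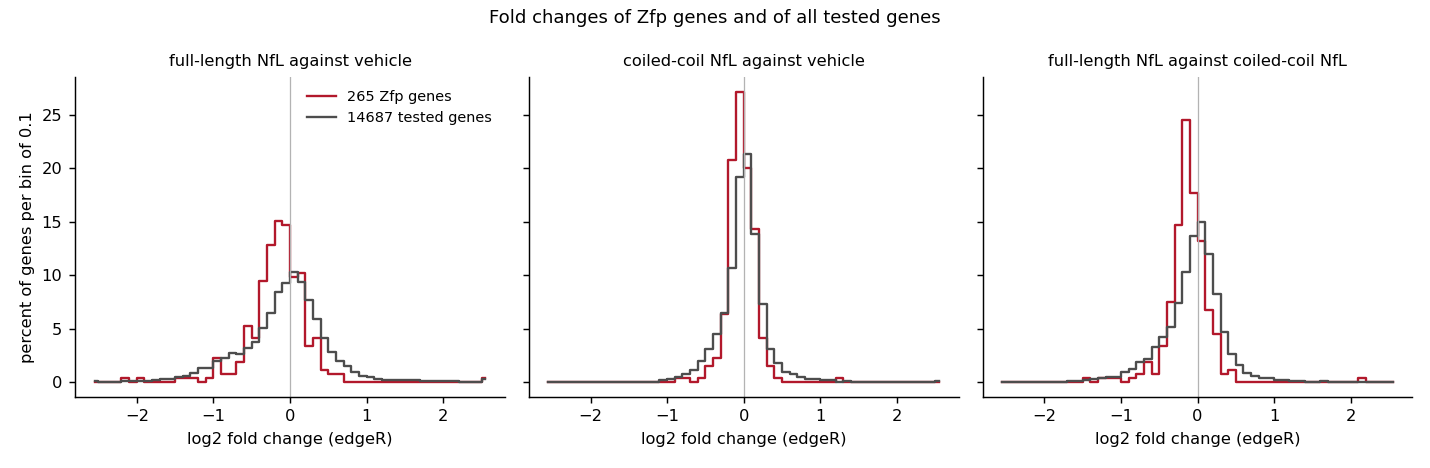
Share of genes (percent, vertical axis) by log2 fold change in bins of 0.1 (horizontal axis) for the 265 Zfp genes and all 14687 tested genes, in the 3 comparisons between groups. With full-length NfL against vehicle the Zfp genes are shifted to negative values (median −0.14, against −0.02 for all tested genes), whereas with coiled-coil NfL against vehicle their median is −0.03.

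The summed share of a library's counts that fell on the 265 genes gave a second view of the same libraries. It was 0.525% to 0.543% with full-length NfL, 0.569% to 0.586% with coiled-coil NfL and 0.558% to 0.640% with vehicle. The 4 full-length libraries were the 4 lowest of the 12, and the coiled-coil and vehicle ranges overlapped. In each of the 4 batches the share was lower with full-length NfL than with vehicle. The share of counts on mitochondrial genes also differed, at 0.210% to 0.372% with full-length NfL, 0.256% to 0.450% with coiled-coil NfL and 0.400% to 0.518% with vehicle; its part in these results was not tested.

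**Figure D2:**
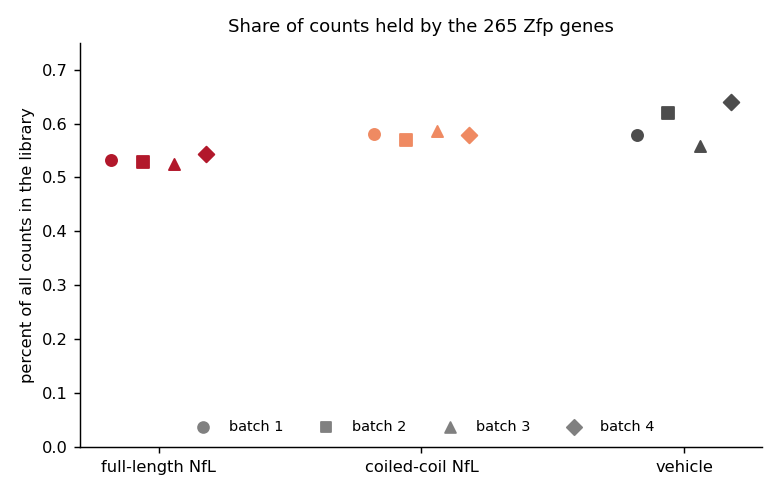
Summed counts of the 265 Zfp genes as a percent of all counts of the library (vertical axis) for full-length NfL, coiled-coil NfL and vehicle (horizontal axis), 1 point per library, with the batch shown by the shape of the point. The full-length libraries sit between 0.525% and 0.543%, below all coiled-coil and vehicle libraries.

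The steepest falls were in genes of low level, and Zfp651, Zfp618 and Zfp697, the first of them, have no KRAB box. Zfp651, Zfp618, Zfp697, Zfp30 and Zfp882 averaged under 2 CPM with full-length NfL and reached the limit through the other groups. Zfp651 (chr9:121759330-121771742, plus strand), the mouse counterpart of human ZBTB47, had 1.53, 0.482, 0.293 and 0.901 CPM in full-length replicates 1 to 4, 3.21, 1.72, 1.505 and 2.19 CPM in the coiled-coil libraries and 4.51, 3.48, 2.73 and 3.59 CPM in the vehicle libraries. All full-length values lay below all coiled-coil and vehicle values. The log2 fold change against vehicle was −2.13 ± 0.42 (SE; edgeR adjusted p = 0.00457). Exons of Zfp651 overlap an antisense gene, and as the strand setting of the counting is not given in the sources used here, reads of the 2 genes cannot be told apart.

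Zfp618 (chr4:62965573-63139708, plus strand), a partner of the hydroxymethylcytosine-binding protein Uhrf2, had 1.46, 1.53, 2.60 and 1.99 CPM with full-length NfL, 5.69, 1.85, 4.71 and 3.15 CPM with coiled-coil NfL and 4.25, 7.62, 7.23 and 9.29 CPM with vehicle. The full-length range lay below the vehicle range and overlapped the coiled-coil range. The log2 fold change against vehicle was −1.91 ± 0.35 (edgeR adjusted p = 0.00325). Zfp697 fell by 1.46 ± 0.40 on the log2 scale (edgeR adjusted p = 0.0196), and this call was lost without full-length replicate 2 (adjusted p = 0.0599) and without vehicle replicate 2 (0.0583) or 4 (0.0578); 12.9% of its 50-base stretches are shared. Zfp882, Zfp667 (also known as Mipu1) and Zfp532 fell by 0.98 ± 0.22, 0.98 ± 0.19 and 0.91 ± 0.22 on the log2 scale (edgeR adjusted p = 0.00876, 0.00453 and 0.0114). Exons of Zfp882 overlap those of Zfp617 on the same strand, and 25.6% of the 50-base stretches of Zfp532 also occur in transcripts of other genes, so the split of reads between these neighbours is uncertain.

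KRAB zinc finger genes were among the falls too. Zfp30 (chr7:29783998-29794702, plus strand), a KRAB gene that modifies neutrophil chemokine responses in the mouse airway, had 2.48, 1.73, 0.753 and 1.80 CPM with full-length NfL, 5.31, 3.90, 3.16 and 3.42 CPM with coiled-coil NfL and 5.08, 3.31, 3.86 and 4.84 CPM with vehicle. All full-length values lay below all values of the other 2 groups. Its log2 fold change against vehicle was −1.33 ± 0.30 (edgeR adjusted p = 0.00917). Zfp113 (chr5:138139702-138155744, minus strand; 8 fingers and a KRAB box) had 4.96, 2.97, 3.85 and 4.17 CPM with full-length NfL, 7.44, 5.49, 6.22 and 5.95 CPM with coiled-coil NfL and 7.25, 8.54, 7.47 and 9.08 CPM with vehicle. Here too the full-length range lay below both others, with a log2 fold change against vehicle of −1.02 ± 0.16 (edgeR adjusted p = 0.00178). Zfp568, a KRAB protein that represses a placental transcript of Igf2, fell by 0.38 ± 0.09 (edgeR adjusted p = 0.01).

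Among the more abundant falls were the related genes Zfp704 and Zfp395, whose proteins had 1 finger by the pattern search. Zfp704 (chr3:9427020-9610085, minus strand), first described as a glucocorticoid-induced gene, had 54.2, 28.5, 37.8 and 42.4 CPM with full-length NfL, 102, 53.7, 70.3 and 74.1 CPM with coiled-coil NfL and 95.3, 103, 77.8 and 114 CPM with vehicle. The full-length range lay below the vehicle range and overlapped the coiled-coil range through 1 library of each group (54.2 and 53.7 CPM). The log2 fold change against vehicle was −1.26 ± 0.21 (edgeR adjusted p = 0.00227); 16.5% of the 50-base stretches of Zfp704 also occur in other transcripts, foremost those of an overlapping antisense gene. Zfp395 (chr14:65358389-65398930, plus strand), whose human counterpart was identified as a protein that binds the regulatory region of the Huntington's disease gene, had 28.6, 17.9, 27.0 and 22.3 CPM with full-length NfL, 44.6, 34.0, 45.2 and 32.9 CPM with coiled-coil NfL and 44.7, 47.9, 49.6 and 47.9 CPM with vehicle. Its full-length range lay below both others, and its log2 fold change against vehicle was −0.99 ± 0.15 (edgeR adjusted p = 0.00123).

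Zfp608 and Zfp609 are paralogs. Zfp608 (chr18:54888048-54992555, minus strand) had 15.4, 14.1, 14.6 and 13.1 CPM with full-length NfL, 25.2, 21.9, 20.6 and 21.2 CPM with coiled-coil NfL and 23.8, 26.0, 23.1 and 26.4 CPM with vehicle, a log2 fold change against vehicle of −0.80 ± 0.09 (edgeR adjusted p = 0.000386) with the full-length range below both others. Zfp609, which works with the Integrator complex and the cohesin loader, had 44.3, 47.0, 35.3 and 43.1 CPM with full-length NfL and 48.0, 42.3, 35.5 and 46.5 CPM with vehicle, and its change of −0.02 ± 0.12 did not pass the test (edgeR adjusted p = 0.903). The difference between the paralogs' changes was not itself tested. Zfp629 (chr7:127607031-127615797, minus strand; 19 fingers) had 23.2, 16.4, 19.1 and 18.9 CPM with full-length NfL, 31.5, 28.7, 28.2 and 30.0 CPM with coiled-coil NfL and 33.5, 34.9, 29.8 and 34.5 CPM with vehicle. Its full-length range lay below both others, with a log2 fold change against vehicle of −0.77 ± 0.10 (edgeR adjusted p = 0.000654).

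**Figure D3:**
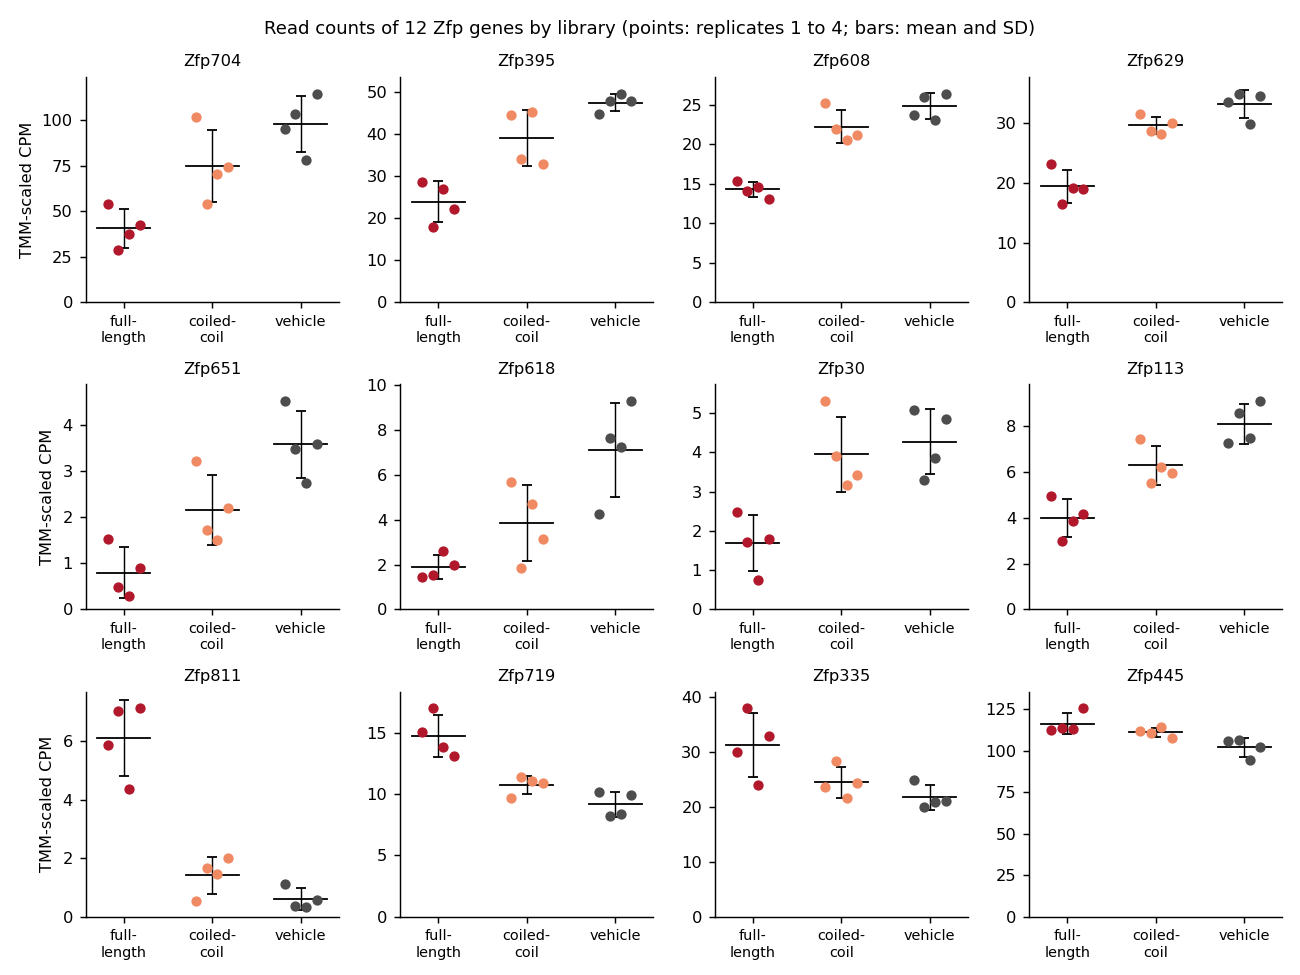
Level (TMM-scaled CPM, vertical axes) of 12 Zfp genes in each library (points) of full-length NfL, coiled-coil NfL and vehicle (horizontal axis), with the mean and SD of the 4 libraries of a group. Zfp811 lies higher with full-length NfL (4.35 to 7.11 CPM, against 0.321 to 1.13 CPM with vehicle), and Zfp704, Zfp395, Zfp608 and Zfp629 the reverse.

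Of the genes that rose, Zfp811 is a KRAB gene with 13 fingers in a cluster on chromosome 17 (chr17:32795676-32809931, minus strand). It reached the limit of 2 CPM only through the full-length libraries, so its membership rests on the group in which it was high. It had 5.87, 7.03, 4.35 and 7.11 CPM with full-length NfL, 0.534, 1.66, 1.45 and 2.00 CPM with coiled-coil NfL and 1.13, 0.377, 0.321 and 0.562 CPM with vehicle. The lowest full-length library exceeded every coiled-coil and vehicle library, while the coiled-coil and vehicle ranges overlapped. The means were 6.09 ± 1.29, 1.41 ± 0.625 and 0.597 ± 0.369 CPM (SD, n = 4 each), and the log2 fold change of full-length NfL against vehicle was 3.35 ± 0.44 (edgeR adjusted p = 0.000717).

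Zfp719 (chr7:43579610-43593235, plus strand; 13 fingers and a KRAB box) had 15.1, 16.998, 13.8 and 13.1 CPM with full-length NfL, 9.66, 11.4, 11.1 and 10.9 CPM with coiled-coil NfL and 10.2, 8.25, 8.35 and 9.90 CPM with vehicle. The full-length range lay above both others, with a log2 fold change against vehicle of 0.69 ± 0.11 (edgeR adjusted p = 0.00183). The calls for Zfp811 and Zfp719 against vehicle held under every alternative tried. Zfp335, a subunit of histone H3K4 methyltransferase complexes whose human counterpart is a microcephaly gene, had 29.9, 37.9, 24.0 and 32.9 CPM with full-length NfL, 23.6, 28.4, 21.6 and 24.3 CPM with coiled-coil NfL and 24.96, 19.9, 20.97 and 21.01 CPM with vehicle. Its full-length range overlapped the vehicle range, and its log2 fold change of 0.52 ± 0.14 (edgeR adjusted p = 0.0157) was not called without full-length replicate 2 (0.0528).

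Other calls of a rise also rested on single libraries. Zfp991 rose by 0.63 ± 0.18 on the log2 scale (edgeR adjusted p = 0.0241), which was lost without full-length replicate 2 (0.0670) or 4 (0.0656) and without vehicle replicate 1 (0.0661), 2 (0.0533) or 4 (0.0584). Zfp821 rose by 0.53 ± 0.15 (adjusted p = 0.0208), lost without full-length replicate 2 (0.0572) or 4 (0.0604) and without vehicle replicate 1 (0.0545) or 4 (0.0572). Zfp954 rose by 0.44 ± 0.12 (adjusted p = 0.021), lost without full-length replicate 2 (0.0611), without vehicle replicate 2 (0.0511) and with the trends of length and GC content removed (0.0555). Zfp346, which binds double-stranded RNA, rose by 0.34 ± 0.10 (adjusted p = 0.024), lost without full-length replicate 2 (0.0692) or 4 (0.0613) and without vehicle replicate 2 (0.0627). Zfp143, an activator at many promoters, rose by 0.34 ± 0.12 (adjusted p = 0.0485) and Zfp445, a KRAB protein that guards imprinted genes, by 0.19 ± 0.06 (adjusted p = 0.0419). The call of each was lost without any 1 of 10 libraries, with adjusted p of 0.0518 to 0.140 for Zfp143 and 0.0519 to 0.124 for Zfp445; both held without full-length replicate 1 or coiled-coil replicate 1. Upper-quartile and no scaling also ended both calls, with adjusted p of 0.0826 and 0.105 for Zfp143 and 0.192 and 0.305 for Zfp445, and so did removal of the trends of length and GC content for Zfp143 (0.0811). The remaining rise was Zfp407 (0.27 ± 0.08), named here after its values were seen because its 4 within-batch differences did not share a sign.

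Promoter sequence is shown for 2 genes that rose and 2 that fell steeply, 3 of them with a KRAB box, so that their motifs can be compared. The 150 bases before the RefSeq start of each gene (GRCm38.p6), on the strand of the gene and written 5′ to 3′, hold in capitals the letters of the motifs searched: GGGCGG (GC box), CCAAT (the letters bound by NF-Y), TGACG (core of the cAMP response element), AAGATGG (YY1 core) and GCGCATG (NRF1 core), on either strand. Zfp811 has CCAAT 57 bases and AAGATGG 33 bases before the start, whereas Zfp719 has overlapping matches to GCGCATG on both strands. Zfp651 has GC boxes on both strands, TGACG and CCAAT, and Zfp30 has CCAAT and GCGCATG.
Zfp811, chr17:32809932-32810081, minus strand: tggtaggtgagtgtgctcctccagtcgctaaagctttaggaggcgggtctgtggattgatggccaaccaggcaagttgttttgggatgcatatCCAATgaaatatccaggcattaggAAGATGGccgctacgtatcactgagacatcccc
Zfp719, chr7:43579436-43579585, plus strand: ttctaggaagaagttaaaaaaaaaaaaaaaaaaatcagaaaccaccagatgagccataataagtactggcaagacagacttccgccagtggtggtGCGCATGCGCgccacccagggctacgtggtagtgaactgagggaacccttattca
Zfp651, chr9:121759883-121760032, plus strand: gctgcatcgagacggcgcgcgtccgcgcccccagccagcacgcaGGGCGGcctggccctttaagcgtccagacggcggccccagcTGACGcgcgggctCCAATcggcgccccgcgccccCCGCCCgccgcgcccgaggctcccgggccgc
Zfp30, chr7:29783818-29783967, plus strand: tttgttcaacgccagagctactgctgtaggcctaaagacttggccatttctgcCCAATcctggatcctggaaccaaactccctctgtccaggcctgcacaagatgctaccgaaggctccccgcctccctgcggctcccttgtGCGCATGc

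A match is a run of letters and not a site in use. Promoter sequences of RefSeq were matched for 221 of the 265 genes, and each 300-base window (250 before to 50 after the start) was compared with those of 9793 tested protein-coding genes. GGGCGG was in 47.5% of Zfp windows (64.7% of the 9793), and the median number of CG dinucleotides per window was 16 (21). CCAAT was in 48.9% of Zfp windows (38.8% of the 9793) and CCGGAA, the core bound by ETS factors, in 36.2% (28.6%). TGACG was in 34.8% (31.8%), AAGATGG in 9.50% (7.25%), CACGTG, the E box, in 7.24% (10.2%), TATAAA in 5.43% (6.89%) and GCGCATG in 6.79% (7.21%). Among Zfp genes, the median number of CG dinucleotides was 12 in windows of KRAB genes, 20 in those of the others and 17 in those of the falls.

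The coding sequences of the same 4 genes show the repeat that names the family. In 1 finger of each, with the linker that follows it (81 bases of the GENCODE M21 transcript, on the strand of the gene), capitals mark the codons of the 2 cysteines and 2 histidines that bind zinc. The codon positions are alike in all 4 because each finger was picked by a fixed pattern that sets them. The bases between them, which include those for the residues that contact DNA, differ.
Zfp811, chr17:32798318-32798398, minus strand: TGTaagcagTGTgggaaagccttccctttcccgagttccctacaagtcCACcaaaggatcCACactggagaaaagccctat
Zfp719, chr7:43590016-43590096, plus strand: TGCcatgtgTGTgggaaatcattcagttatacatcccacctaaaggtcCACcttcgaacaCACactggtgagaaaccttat
Zfp651, chr9:121766493-121766573, plus strand: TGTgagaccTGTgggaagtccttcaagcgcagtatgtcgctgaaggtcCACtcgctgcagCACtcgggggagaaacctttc
Zfp30, chr7:29792644-29792724, plus strand: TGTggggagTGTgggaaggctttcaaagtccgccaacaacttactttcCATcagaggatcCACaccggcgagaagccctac

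Because fingers repeat and clusters duplicate, reads of 50 bases cannot always be placed on 1 gene. At least 10% of the 50-base stretches of 46 Zfp genes also occur in transcripts of other genes, and 75 genes share none. Of the 46, 2 were called higher and 11 lower with full-length NfL (median log2 fold change −0.15), and of the other 219, 8 were higher and 46 lower (median −0.14). The shares over all tested genes were 14% higher and 10.9% lower. Zfp991 was the extreme, with 82.2% of its stretches shared, so its rise is uncertain. A coding run of 484 bases is identical in Zfp991 and Zfp992, of which 60 bases are shown with both positions, in lower case because they do not differ.
Zfp991, chr4:147178325-147178384, and Zfp992, chr4:146465981-146466040: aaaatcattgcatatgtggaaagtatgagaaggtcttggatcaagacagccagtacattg
Exons of 23 Zfp genes overlap another gene on the same strand and those of 64 a gene on the other strand, and for these the split of reads is uncertain.

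With full-length NfL set directly against coiled-coil NfL, 6 Zfp genes were lower and 1 was higher (edgeR quasi-likelihood F test, adjusted p under 0.05), where 1.34% of all tested genes were called lower and 1.38% higher. Zfp811 was the gene that rose, with a log2 fold change of 2.11 ± 0.40 (edgeR adjusted p = 0.0244). The falls were Zfp704 (−0.88 ± 0.21, adjusted p = 0.05), Zfp395 (−0.71 ± 0.15, adjusted p = 0.0334), Zfp608 (−0.64 ± 0.09, adjusted p = 0.00887), Zfp629 (−0.61 ± 0.10, adjusted p = 0.0138), Zfp318 (−0.44 ± 0.10, adjusted p = 0.0434) and Zfp646 (−0.23 ± 0.05, adjusted p = 0.0448). All 6 were also lower than with vehicle, and both comparisons share the full-length libraries. Zfp318, which sets the balance of IgM and IgD transcripts in B cells, had 31.6, 30.3, 37.0 and 33.0 CPM with full-length NfL and 51.2, 40.5, 46.4 and 40.7 CPM with coiled-coil NfL. Zfp646 (27 fingers) had 54.6, 55.5, 59.7 and 56.8 CPM with full-length NfL and 66.1, 68.0, 65.7 and 65.9 CPM with coiled-coil NfL. The ranges did not overlap for either gene. The median log2 fold change over the 265 genes was −0.12, against −0.02 over all tested genes, and 194 genes (73.2%, against 52.5%) had a negative one.

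In the fit without the replicate block, these calls sat close to the threshold and most depended on single libraries. Zfp608 kept its call without any 1 library (adjusted p at most 0.0452). Zfp811 lost its call without full-length replicate 2 (adjusted p = 0.0884), full-length replicate 4 (0.0875) or coiled-coil replicate 3 (0.0659), and Zfp629 without full-length replicate 2 (0.0569) or 4 (0.0625). Zfp395 lost its call without coiled-coil replicate 1 (0.0952) or 3 (0.0865) or full-length replicate 2 (0.0900) or 4 (0.110). Zfp704 kept its call only without full-length replicate 1, coiled-coil replicate 2 or vehicle replicate 3 (otherwise 0.0618 to 0.155), Zfp318 only without full-length replicate 3, coiled-coil replicate 2 or vehicle replicate 3 (0.0537 to 0.151) and Zfp646 only without full-length replicate 3 or vehicle replicate 3 (0.0559 to 0.151). The count of falls was 1 without full-length replicate 2 or 4 (0.121% and 0.147% of all tested genes were then lower). It was 2 without coiled-coil replicate 1 or 3 (0.371% and 0.395%), 3 without vehicle replicate 1 or 2 (1.12% and 0.685%) and 11 without full-length replicate 1 (1.87%). With the replicate block, 34 Zfp genes were lower (12.8%, against 10.1% of all tested genes) and 4 higher (1.51%, against 8.99%) with full-length than with coiled-coil NfL. With the trends of length and GC content removed, Zfp318 (−0.34, adjusted p = 0.0841) and Zfp646 (−0.16, adjusted p = 0.257) were no longer called.

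Coiled-coil NfL gave no called change in a Zfp gene against vehicle, where 0% of all tested genes were called (edgeR quasi-likelihood F test, 0 of 14687). At an unadjusted p under 0.05 there were 10 Zfp genes (3.77%, against 7.37% of all tested genes), and DESeq2 and the fit with the replicate block also called none of the 265; DESeq2 gave no adjusted p for 151 of them, and over all tested genes called 24 higher and 9 lower. The median log2 fold change was −0.03, against 0.00 over all tested genes, with 157 genes negative. For Zfp811 the change was 1.24 ± 0.44 (edgeR adjusted p = 0.661), for Zfp618 −0.89 ± 0.33 (0.662), for Zfp651 −0.73 ± 0.39 (0.725) and for Zfp704 −0.38 ± 0.21 (0.731). A p that misses the threshold does not show that these levels were alike.

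None of the 6 most abundant Zfp genes was called in any comparison. Zfp710 averaged 267 CPM with full-length NfL, 262 CPM with coiled-coil NfL and 233 CPM with vehicle, with a log2 fold change of full-length NfL against vehicle of 0.19 ± 0.08 that did not pass the test (edgeR adjusted p = 0.0888); it passed without vehicle replicate 3 (0.0405), and with the replicate block and the trends of length and GC content removed (0.30, 0.00737). Zfp106, an RNA-binding protein needed by motor neurons, averaged 226, 226 and 209 CPM in the same order, and Zfp91, an E3 ubiquitin ligase of noncanonical NF-kB signalling, 195, 188 and 192 CPM. Neither passed the test, except Zfp106 with the replicate block and those trends removed (0.27, adjusted p = 0.00579). Nor was a call made for Zfp638, which silences unintegrated retroviral DNA together with the HUSH complex (113, 125 and 123 CPM), Zfp207, a mitotic kinetochore protein (122, 120 and 114 CPM), or Zfp740 (113, 121 and 121 CPM). Exons of Zfp91 overlap Cntf on the same strand, and 24.7% of the 50-base stretches of Zfp106 are shared.

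Of the listed members with well-studied roles, Zfp318, Zfp335, Zfp568 and Zfp148 were called with full-length NfL against vehicle and the others were not. Among all the Zfp genes 25.3% were called, against 24.9% of all tested genes, so most genes of any kind were not. Zfp809, a KRAB protein that silences retroviruses through the primer-binding site for proline tRNA, had 14.0, 13.2, 17.1 and 12.5 CPM with full-length NfL, 12.9, 12.3, 14.8 and 12.2 CPM with coiled-coil NfL and 11.5, 11.7, 15.1 and 14.3 CPM with vehicle. The 3 ranges overlapped, and its log2 fold change of full-length NfL against vehicle was 0.11 ± 0.13 (edgeR adjusted p = 0.557). For Zfp281, a regulator of pluripotency, the change was 0.11 ± 0.12 (0.493), for Zfp217, an oncogene product in human breast cancer, 0.04 ± 0.07 (0.729), for Zfp384, a fusion partner in human leukaemia, 0.19 ± 0.08 (0.103; 0.0203 with the replicate block and the trends of length and GC content removed), and for Zfp703, also linked to human breast cancer, −0.15 ± 0.10 (0.301). Zfp326, a part of the DBIRD complex that links transcription and splicing, changed by −0.21 ± 0.09 (0.104; 0.0383 with the replicate block). Zfp263, Zfp800 and Zfp692 changed by −0.20 ± 0.10 (0.146; −0.27 and 0.0403 with no scaling), −0.14 ± 0.13 (0.446) and −0.07 ± 0.25 (0.853). Zfp148, a Kruppel-type factor also called ZBP-89, fell by 0.20 ± 0.06 (adjusted p = 0.0397), a call lost without any 1 of 8 libraries (0.0544 to 0.112; it held without vehicle replicate 1, full-length replicate 3 and coiled-coil replicates 1 and 2) and with the trends of length and GC content removed (−0.06, adjusted p = 0.53). Zfp57, the imprint guardian that acts alongside Zfp445, was below the limit at 0.986 CPM.

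The downward shift was found with and without the KRAB box, but in batch 3 the KRAB genes hardly showed it. Of the 153 KRAB genes, 29 (19%) were called lower and 5 (3.27%) higher with full-length NfL against vehicle, with a median log2 fold change of −0.13. Of the 112 others, 28 (25%) were called lower and 5 (4.46%) higher, with a median of −0.14. Of all tested genes, 10.9% were called lower and 14% higher. The median difference within batches 1 to 4 was −0.19, −0.17, −0.005 and −0.17 for the KRAB genes. For the others it was −0.11, −0.13, −0.16 and −0.19. Against coiled-coil NfL, the 6 genes called lower had no KRAB box and the 1 called higher, Zfp811, had it. All 6 were among the Zfp genes of the highest level (18.4 to 253 CPM). The mean CPM had a median of 7.85 over the KRAB genes and 21.6 over the others, and the part of level in this split was not tested. The split also depended on the fit. No KRAB gene was called lower with upper-quartile scaling (5 others were), no scaling (3), no filter (4), the length and GC trends removed (4) or the 2 groups alone (2). With the replicate block, 16 KRAB genes and 18 others were called lower (background 10.1% lower). DESeq2 called 12 and 14 lower (background 4.28% lower and 5.43% higher). The median of the KRAB genes was −0.14, against −0.11 for the others. The SCAN domain, a dimerization domain found beside some finger arrays, was found in 13 genes, of which 3 were lower and 1 higher against vehicle (median −0.20). By number of fingers, 4 of 13 genes with at most 1 finger were called lower, 12 of 54 with 2 to 6, 27 of 116 with 7 to 12 and 14 of 82 with at least 13. The calls higher numbered 0, 3, 5 and 2 in the same order.

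Position gave a similar account. Joining genes less than 500 kb apart put 164 genes into 33 clusters, which held 124 of the 153 KRAB genes. Of the clustered genes 32 (19.5%) were called lower and 5 (3.05%) higher against vehicle (median log2 fold change −0.13). Of the 101 others 25 (24.8%) were lower and 5 (4.95%) higher (median −0.15). The shares over all tested genes were 10.9% lower and 14% higher. Medians varied among the 15 clusters with at least 4 genes. The cluster at chr7:29768552-30169750, which holds Zfp30 and Zfp568, had a median of −0.22, with 12 of 14 genes negative and 4 called lower. The cluster at chr6:47835661-48623227 had a median of −0.24 and 3 of 8 genes called lower. The largest, at chr17:21008903-23564238 with 20 genes, all with a KRAB box, had a median of −0.07 with 2 called lower, and that at chr13:67038596-67827002 had a median of −0.12 with none of 13 called. Zfp811 stood apart from its neighbours, since the 11 genes of its cluster (chr17:32765496-33631779) had a median of −0.02 with 2 others called lower. No test was made between clusters, whose neighbouring genes share reads and are not independent.

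**Figure D4:**
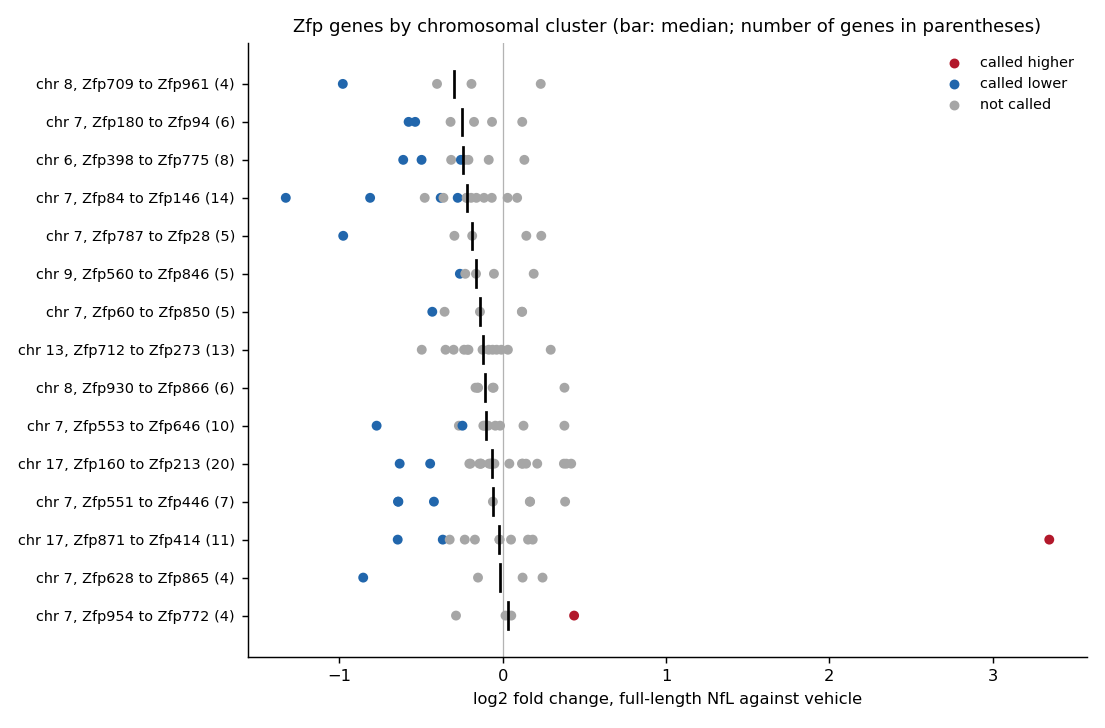
Log2 fold change of full-length NfL against vehicle (horizontal axis) of each Zfp gene (points) in the 15 clusters of at least 4 genes (vertical axis), with the median as a bar. Medians run from −0.30 in the cluster of 4 genes on chromosome 8 to 0.03 in the cluster of 4 genes on chromosome 7 that holds Zfp954, and Zfp811 lies far to the right of its cluster at 3.35.

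Gene length and level moved with the fold change across all genes, so the Zfp genes were set beside genes alike in length, in GC content or in level. Their exons were longer (median 4831 bases, against 4132 over all tested genes) and poorer in GC (44.6%, against 49.3%). KRAB genes had a median length of 4387 bases and a GC content of 42.03%, and the others 5647 bases and 50.3%. Over all tested genes, the median log2 fold change of full-length NfL against vehicle ran from 0.09 in the shortest to −0.13 in the longest of 5 equal bins. In the 4 bins of longer genes, which hold 58, 76, 69 and 56 Zfp genes, the median of the Zfp genes was −0.04, −0.14, −0.13 and −0.23, against 0.04, −0.01, −0.06 and −0.13 for all tested genes of the same bins; the bin of the shortest genes held 6 Zfp genes. By GC content the medians of all tested genes stayed between −0.05 and 0.02, while those of the Zfp genes were −0.12, −0.16, −0.18, −0.11 and −0.12 from the poorest to the richest of 5 bins. By level, the lowest of 5 bins held no Zfp gene, and those of the 4 others (104, 101, 48 and 12 genes, low to high) had medians of −0.17, −0.13, −0.07 and −0.04, where all tested genes of those bins had −0.14, −0.00, 0.05 and 0.09.

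When the trends of both length and GC content were removed within each library, 46 Zfp genes were called lower (17.4%, against 9.88% of all tested genes) and 11 higher (4.15%, against 14.4%), and 42 of the 57 falls remained. The median log2 fold change was then −0.091, against −0.02 over all tested genes. Across the 265 genes, Spearman's rho of the log2 fold change with length was −0.24 before and 0.02 after this step (−0.20 and 0.02 across all tested genes). These are descriptions across genes, which are not independent replicates and share the same 8 libraries. Among the named falls against vehicle, Zfp148 lost its call after this step, as did Zfp646 (log2 fold change −0.12, edgeR adjusted p = 0.297, against −0.25 ± 0.05 and 0.00725 before).

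**Figure D5:**
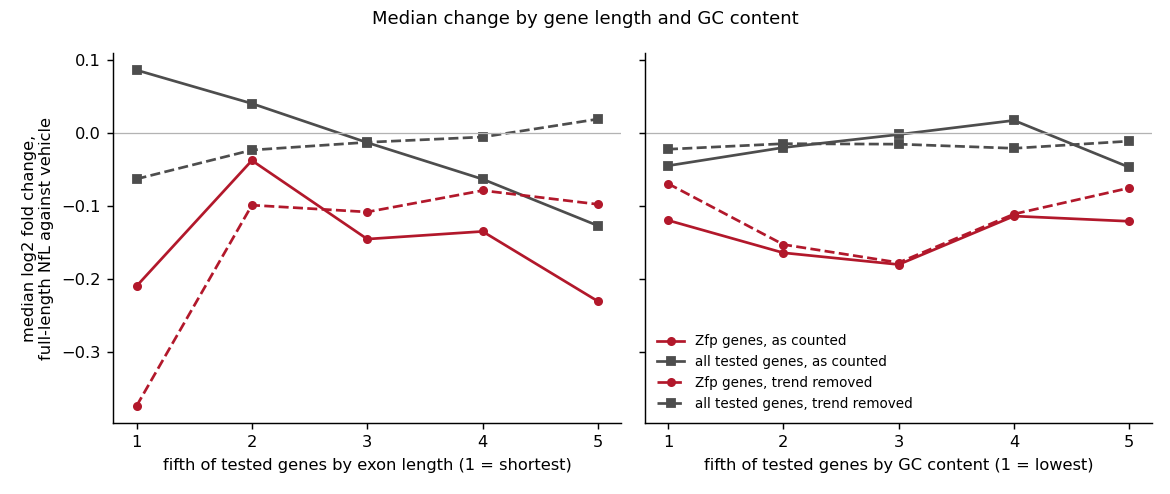
Median log2 fold change of full-length NfL against vehicle (vertical axes) by 5 equal bins of exon length and of GC content of all tested genes (horizontal axes, low to high), for the Zfp genes and all tested genes, as counted and with both trends removed. The Zfp genes lie below all tested genes in every bin of either feature, and over the lengths their medians run from −0.23 to −0.04 as counted; the bin of the shortest genes holds 6 Zfp genes.

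Genes for the proteins through which KRAB boxes act were checked as well. Of 29 tested genes for KRAB co-repressors and their partners, 1 was lower and 2 were higher with full-length NfL than with vehicle (median log2 fold change 0.05), where 10.9% of all tested genes were lower and 14% higher. Trim28, the co-repressor that KRAB boxes bind, averaged 165 ± 13.7 CPM with full-length NfL, 171 ± 10.0 CPM with coiled-coil NfL and 176 ± 10.7 CPM with vehicle (SD, n = 4 each; −0.09 ± 0.08, edgeR adjusted p = 0.386). Setdb1 changed by −0.07 ± 0.07 (0.43). Atf7ip, the partner that stabilizes Setdb1, rose by 0.39 ± 0.09 on the log2 scale (edgeR adjusted p = 0.0128), with 93.6 ± 8.34 CPM with full-length NfL and 71.7 ± 3.30 CPM with vehicle. The histone deacetylase gene Hdac1 rose by 0.46 ± 0.13 (adjusted p = 0.0231) and the DNA methyltransferase gene Dnmt3b fell by 1.302 ± 0.26 (adjusted p = 0.0049).

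Other families of zinc finger genes also had medians below 0. For comparison, 10.9% of all tested genes were called lower and 14% higher with full-length NfL against vehicle, with a median log2 fold change of −0.02. Of 38 tested Zbtb genes, whose proteins join a BTB domain to fingers, 8 were lower and 2 higher with full-length NfL than with vehicle (median log2 fold change −0.13), among them Zbtb16 (−2.51 ± 0.35, edgeR adjusted p = 0.00094), Zbtb39 (−0.50 ± 0.08, 0.00209) and Zbtb7b (0.80 ± 0.14, 0.00234). Of 19 Zscan and Zkscan genes, 7 were lower and 1 higher (median −0.27), led by Zkscan17 (−0.91 ± 0.14, 0.00134) and Zscan26 (−0.58 ± 0.10, 0.00217). Of 17 Klf and Sp genes, 2 were lower and 2 higher (median −0.18), with Klf2 at 1.09 ± 0.21 (0.00382) and Klf11 at −0.85 ± 0.18 (0.00694). Of 7 further genes with related symbols, not all of the C2H2 type, 3 were lower and none higher (median −0.52), among them Zfp36l1 (−0.63 ± 0.11, 0.00307), an mRNA-decay factor with the finger type of Zfp36, and Zfpm1 (−0.52 ± 0.13, 0.012), the GATA cofactor known as FOG1. Whether these families differ from the Zfp genes was not tested.

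Just inside the limit of 2 CPM were Zfp551 (mean 2.18 CPM), Zfp566 (2.08) and Zfp771 (2.06), with log2 fold changes of full-length NfL against vehicle of −0.06, −0.36 and −0.02. Just outside were Zfp239 (1.98 CPM), Zfp458 (1.96) and Zfp456 (1.96), with −0.44, 0.16 and 0.14.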

How the data were processed

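The deposited table holds the authors' raw read counts per Ensembl gene for 12 libraries, without normalization. Per the labels' protocols, a stranded mRNA kit was used and reads were single and 50 bases long; per the submitters' processing notes, GSNAP aligned them to GRCm38. Not given in the sources used here are versions, the counting tool, its annotation and its strand setting. Symbols came from GENCODE M21 (99.7% of identifiers; 147 had none).

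Counts were filtered with filterByExpr (14687 genes), scaled with TMM and fitted with edgeR 4.0.16 in R 4.3.3, all 12 libraries in 1 model with 9 residual degrees of freedom (6 with the replicate block). Pairs of groups were compared by the two-sided quasi-likelihood F test with Benjamini-Hochberg adjustment over all tested genes and a threshold of 0.05. Standard errors derive from the F statistic; CPM are TMM-scaled except in the rule and in summed shares. KRAB boxes were found with HMMER 3.4 (E-value under 0.0001), and length and GC trends were removed with splines of 5 degrees of freedom per library. The fitting steps were tested on simulated data, in which 41 of 100 changes of 1.5-fold and 82 of 100 of 2-fold were recovered. Smaller changes were not simulated. The simulated levels held no batch differences, and their spread came from a model with the replicate block, so recovery in the real libraries may differ.

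The batch label was taken to pair the samples in the within-batch differences and in the fits with the replicate block. The main fit and the fits with 1 library left out did not use it. With group means removed, the correlation within a batch ran from 0.31 to 0.73 over 12 pairs. Across batches it ran from −0.46 to 0.44 over 36 pairs, 8 of them above 0.1. The highest of these, full-length replicate 4 with vehicle replicate 2, exceeded the lowest pair within a batch. Over the Zfp genes alone, the correlation within a batch ran from −0.000168 to 0.67, with 11 of 12 pairs above 0.1. No 2 libraries of a group agreed within sampling noise.

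Genes and lists were chosen with earlier results of these data known. Named genes were up to 10 largest falls and rises per comparison with the same sign in all 4 batches, the 6 most abundant, those nearest the limit, and a list with known roles.

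Alternatives were upper-quartile or no scaling, no filter, DESeq2 1.42.0, the 2 compared groups alone, the replicate block, removal of length and GC trends, other limits on the mean CPM (1 and 5), and each library left out.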

Additional observations from a re-analysis of the deposited data

Results flagged for a closer look

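In 2 of 135 groups of 4 libraries examined, 1 library stood far from the other 3; about 1 group in 20 would do so by chance. Zfp991 had 6.72 CPM in coiled-coil replicate 1, against 10.3 to 10.6 CPM in the other coiled-coil libraries. Zfp445 had 125.7 CPM in full-length replicate 4, against 112.7 to 113.8 CPM in the other full-length libraries, and its call against vehicle was lost without that library (adjusted p = 0.124).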

How the results depend on the processing

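No result reversed. For full-length NfL against vehicle, the count of Zfp genes called higher (10) was 6 with no scaling, 18 with the replicate block, 24 with the replicate block and the length and GC trends removed, 5 with the 2 groups alone, 2 to 14 when 1 library was left out and 2 without full-length replicate 4 and vehicle replicate 2. The count called lower (57) was 37 with no filter, 34 to 58 when 1 library was left out and 20 without that pair of libraries. The share of all tested genes called moved too. The share called higher (14%) was 9.36% to 15.8% when 1 library was left out and 5.35% without that pair. The share called lower (10.9%) was 4.44% with no filter, 6.67% to 11.7% when 1 library was left out and 3.67% without that pair. The median of the Zfp genes (−0.14) was −0.20 with upper-quartile scaling, −0.22 with none and −0.091 with the trends removed. For full-length against coiled-coil NfL, the count called higher (1) was 4 with the block, 8 with the block and trends removed, 0 to 3 when 1 library was left out, 0 without that pair, 3 with DESeq2 and 0 among genes of at least 5 CPM. The count called lower (6) was 3 with no scaling, 34 with the block, 26 with the block and trends removed, 2 with the 2 groups alone, 1 to 11 when 1 library was left out, 0 without that pair and 26 with DESeq2. Of all tested genes, 1.34% were called lower, against 10.1% with the block and 4.28% with DESeq2. With the block and trends removed, 9.72% of all tested genes and 9.81% of the Zfp genes were called lower. With no scaling these shares were 1.29% and 1.13%, so in both fits the Zfp genes were near the background. The share of all tested genes called lower was 0.121% to 1.87% when 1 library was left out and 0.0608% without that pair. The median of the Zfp genes (−0.12) was −0.16 with no scaling, −0.090 with the trends removed, −0.091 with the replicate block and the trends removed, and −0.130 to −0.093 when 1 library was left out. The cause of these shifts was not tested. Coiled-coil NfL against vehicle gave 0 calls among the Zfp genes throughout. Of 32 named calls, 12 held under every alternative; most were lost without that pair (20) or without full-length replicate 2 (15), and none with the block or DESeq2. Genes near 2 CPM had the least depth, and differences there may not have been detectable.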
